A study of Mus musculus with 8 samples.

Results

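The genes for the proteasome subunits were compared between cardiac fibroblasts with Cre-targeted genes of the TGFβ pathway and their controls. Members were the gene symbols that begin with Psma, Psmb, Psmc, Psmd or Psme and a digit, without the immunoproteasome subunits Psmb8, Psmb9 and Psmb10 and without symbols of pseudogenes. The rule found 41 of the 34399 gene symbols in the tables. By role they were 7 genes of the 20S alpha ring, 7 of the 20S beta ring, 6 ATPases and 11 non-ATPase subunits of the 19S cap, 4 activators, 3 assembly chaperones, 2 tissue-specific subunits and 1 gene, Psmc3ip, that encodes a factor of meiotic recombination and no subunit. The remaining 35 genes without those last 3 kinds are called constitutive below.

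The study profiled sorted ventricular fibroblasts of mice 4 weeks after transverse aortic constriction (TAC), an operation that overloads the left ventricle and brings on fibrosis. Each of 4 groups had 2 RNA-seq libraries. Smad2/3 DKO fibroblasts came from mice with Smad2 flox/flox and Smad3 flox/flox alleles and a MerCreMer cDNA, a Cre recombinase that tamoxifen switches on, in the Postn locus. Postn-Cre control fibroblasts carried the same Postn MerCreMer knock-in, and the labels list no floxed gene for them. Tgfbr1/2 DKO fibroblasts came from mice with Tgfbr1 flox/flox and Tgfbr2 flox/flox alleles and the MerCreMer cDNA in the Tcf21 locus. Tcf21-Cre control fibroblasts carried the Tcf21 knock-in, likewise with no floxed gene listed. Postn, which encodes the matrix protein periostin, is turned on in activated fibroblasts, whereas Tcf21 marks resident ones. All 4 groups carried a Cre-dependent eGFP reporter in the Rosa26 locus and were sorted as GFP+ cells, so each library holds cells in which the driver locus had been active under tamoxifen. Mice had TAC at 8 to 10 weeks of age, and received tamoxifen at 100 mg/kg by injection on 2 days and then in chow at 40 mg/kg. The Smad2/3 pair and the Tgfbr1/2 pair were sequenced in different runs with different drivers, so run, driver and targeted genes cannot be told apart wherever the pairs are set against each other. Whether a group's libraries stand for different animals or for pools is not in the labels, so the p-values below speak only of the spread among libraries, which may be technical.

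The 26S proteasome is the main protease of the cytosol and nucleus and degrades proteins that carry ubiquitin chains. Its 20S core is a barrel of alpha and beta rings with the proteolytic sites in the beta subunits Psmb5, Psmb6 and Psmb7, and the 19S cap binds ubiquitin, unfolds the substrate with its ATPase ring and feeds it into the barrel. Cells adjust the genes of the particle together when proteasome activity falls, chiefly through the transcription factor Nfe2l1. Fibroblasts use it to remove, among many other proteins, Smads and TGFβ receptors.

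Library totals ran between 21477646 and 32594474 counts, so that 3 counts corresponded to 0.092 to 0.14 CPM (counts scaled to a library total of 1000000). The tables count whole genes, and the loss of floxed exons was therefore not checked by them. Smad2 stood at 84.5 and 78.2 CPM in Smad2/3 DKO libraries and 95.4 and 82.3 CPM in Postn-Cre control libraries, and Tgfbr2 at 471 and 406 CPM in Tgfbr1/2 DKO libraries and 370 and 406 CPM in Tcf21-Cre control libraries. None of Smad2, Smad3, Tgfbr1 and Tgfbr2 passed the test in the comparison that targeted it. The groups are used as labelled. All 7 fibroblast markers were detected, with a summed level of 14343 to 14662 CPM in Smad2/3 DKO, 16558 to 18655 CPM in Postn-Cre control, 21791 to 23176 CPM in Tgfbr1/2 DKO and 25534 to 30513 CPM in Tcf21-Cre control libraries.

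The members were expressed in every group. Of the 41 genes, 40 had counts in all 8 libraries, and Psma8, a testis subunit, stayed at or below 0.696 CPM and had no count in Smad2/3 DKO HK15 and Postn-Cre control HK3. Per kilobase of exon, the means over 8 libraries were highest for Psmb2 (57.4 CPM per kb), a structural beta subunit, Psme1 (52.0 CPM per kb), an activator subunit, and Psmc5 (46.1 CPM per kb), a 19S ATPase. Among constitutive genes the per-length level was lowest for Psmd13 (3.81 CPM per kb) and Psmd3 (4.89 CPM per kb), both non-ATPase subunits. The order differed between groups. Psmb2 averaged 28.3 and 27.5 CPM per kb in Smad2/3 DKO and Postn-Cre control, but 102 and 72.0 in Tgfbr1/2 DKO and Tcf21-Cre control. Highest were Psme1 in Smad2/3 DKO (50.8) and Psme3 in Postn-Cre control (48.2). In Smad2/3 DKO Psmb3 (2.78) was the lowest constitutive gene. These levels divide by the union of all annotated exons, which includes exons that a fibroblast may not use, so neighbours in this order are not a measure of subunit ratios. The 41 genes together took 1961 and 2120 CPM in Smad2/3 DKO libraries against 2051 and 2192 CPM in Postn-Cre control libraries. They took 2723 and 2713 CPM in Tgfbr1/2 DKO libraries against 2085 and 1839 CPM in Tcf21-Cre control libraries. By library total the summed level was thus 1.39-fold in Tgfbr1/2 DKO with no overlap of the libraries, and 0.962-fold in Smad2/3 DKO with overlapping libraries. TMM factors, which scale library sizes, were 0.946 and 0.945 in Smad2/3 DKO and 0.898 and 0.922 in Postn-Cre control libraries. The overlap in Smad2/3 DKO holds by library total and not after that scaling. In bulk samples fewer cells of a type and less RNA per cell cannot be told apart.

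**Figure D1:**
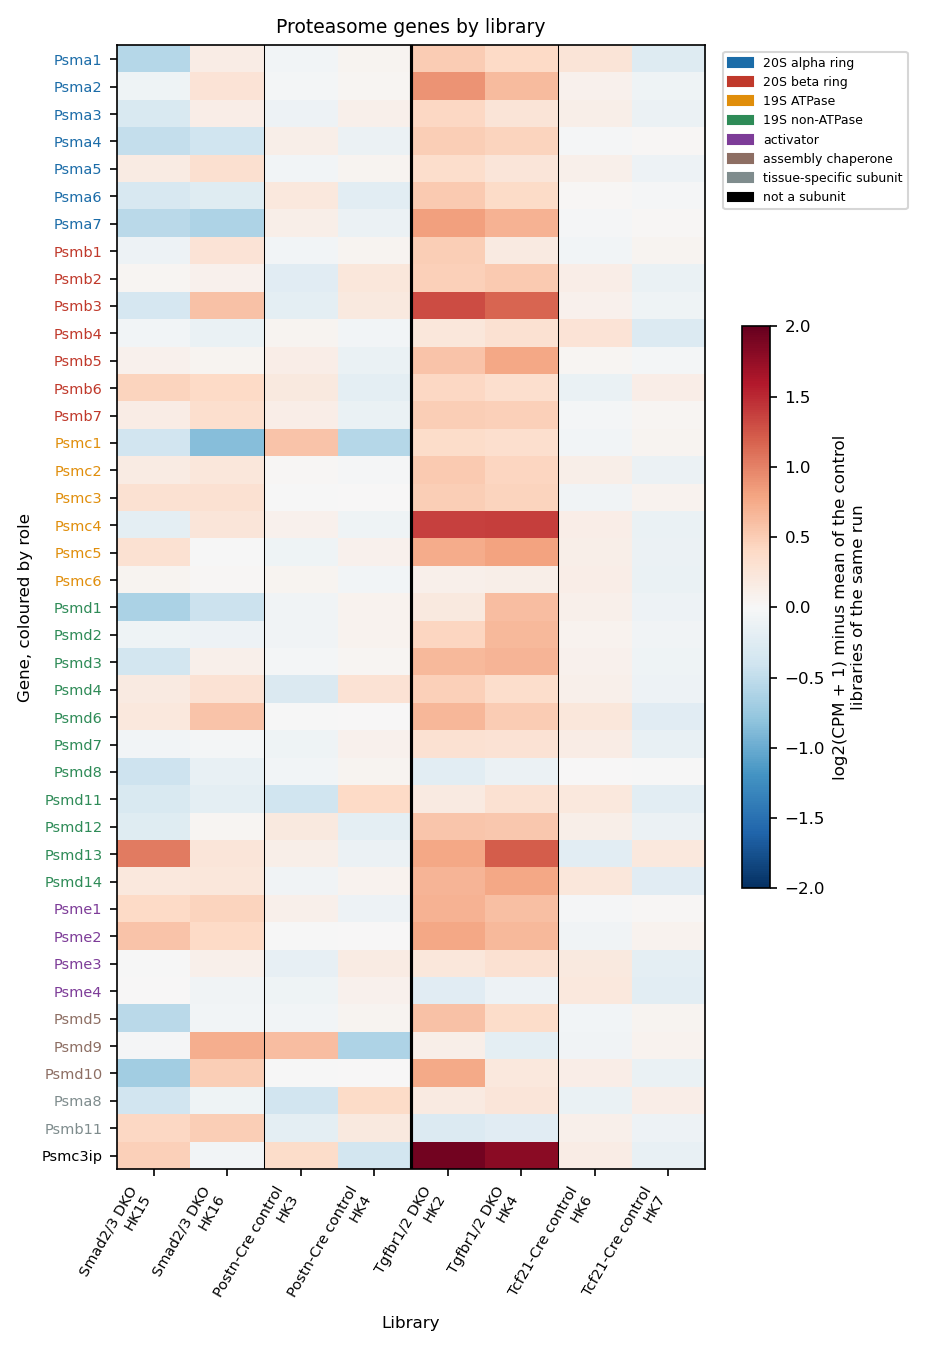
Heat map of log2(CPM + 1) of each member (rows, coloured by role) in each of the 8 libraries (columns), minus the mean of the 2 control libraries of the same run. The Tgfbr1/2 DKO columns are red in nearly all rows, while the Smad2/3 DKO columns hold rows of either colour.

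In Tgfbr1/2 DKO fibroblasts most proteasome genes had higher values than in the Tcf21-Cre control, in the core, the cap and the activators. Of 41 members 38 (92.7%) had a log2 fold change above 0, against 49.1% of all 16658 genes tested, and the median was 0.56 among members and -0.012 among all genes. Both Tgfbr1/2 DKO libraries lay above both control libraries for 34 members (82.9%, against 21.8% of all genes tested). The change passed an adjusted p of 0.05 (edgeR quasi-likelihood test, Benjamini-Hochberg adjustment over all genes) for 6 members, all higher, which is 14.6% of members against 3.96% of all genes called in either direction and 2.64% called higher. No member was called lower (1.31% of all genes), and 2 members, Psmb11 and Psmd8, had both DKO libraries below both controls (4.88%, against 29.4%). At an unadjusted p below 0.05 there were 29 members, all higher (70.7%, against 11.3% of all genes). All 41 members passed the filter on low counts here, the low Psma8 included. The log2 fold change had a Spearman correlation with exon-union length of -0.34 over the 41 members and -0.12 over 16311 genes. With the length trend over all genes removed, a step chosen after seeing the data, the member median was 0.52. The summed level was 1.43-fold for the alpha ring, 1.44-fold for the beta ring, 1.52-fold for the 19S ATPases, 1.34-fold for the non-ATPase subunits and 1.24-fold for the activators.

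**Figure D2:**
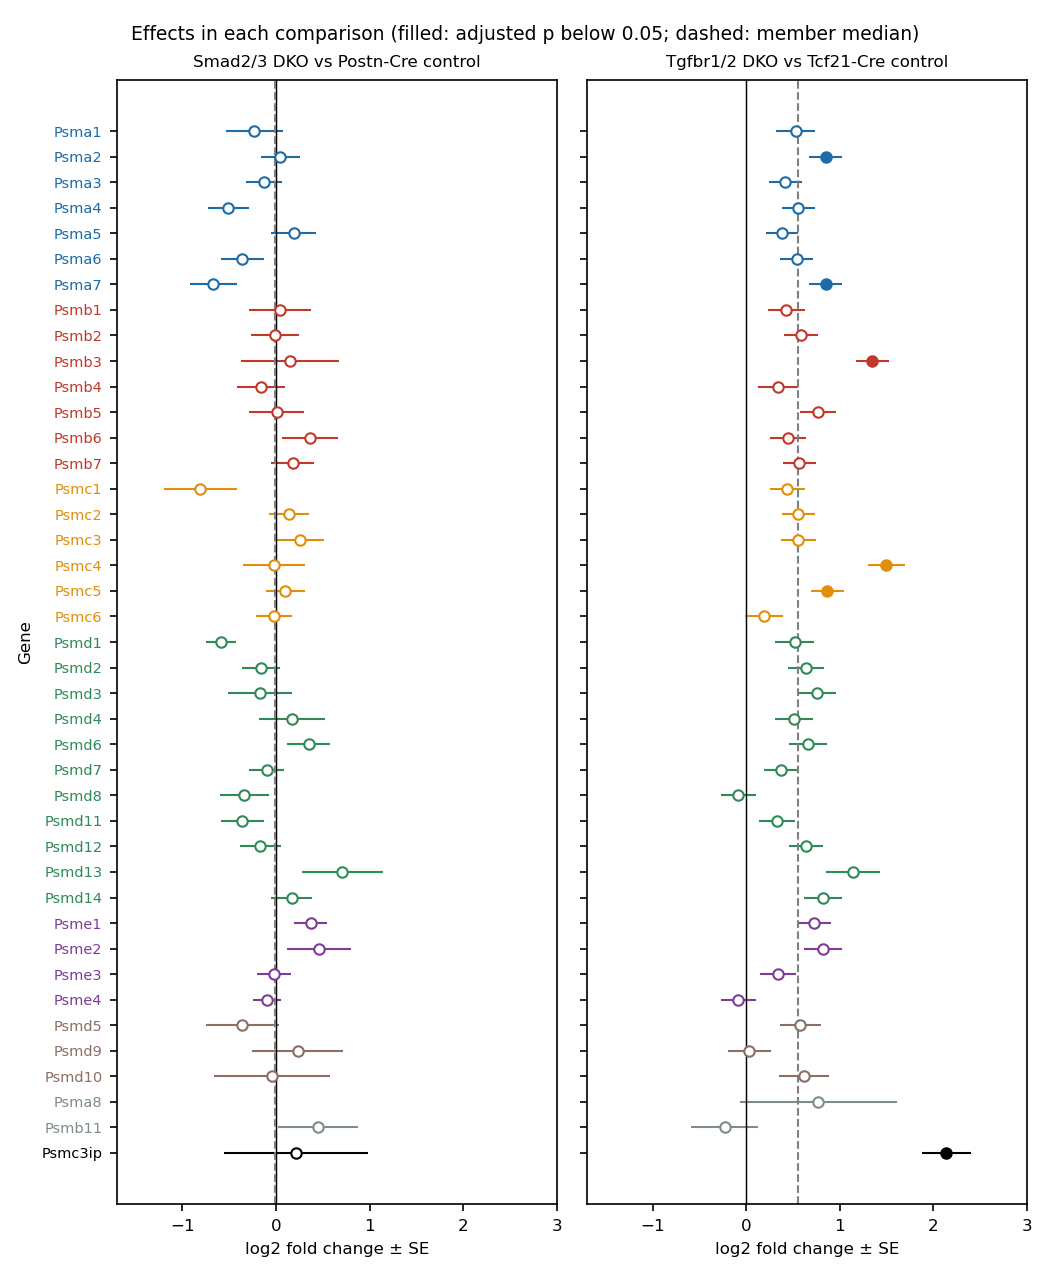
Log2 fold change with its standard error for each member, Smad2/3 DKO over Postn-Cre control (left) and Tgfbr1/2 DKO over Tcf21-Cre control (right), coloured by role as in the heat map. Filled points had an adjusted p below 0.05 and the dashed lines mark the member medians of -0.015 (left) and 0.56 (right).

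The 7 alpha subunits, which form the outer rings of the barrel and its gate, were all above 0 and without overlap, between 0.38 (Psma5) and 0.85 (Psma2) on the log2 scale. Psma2 had 140 and 116 CPM in Tgfbr1/2 DKO libraries and 80.0 and 70.3 CPM in Tcf21-Cre control libraries, a rise of 0.85 ± 0.18 (log2, SE; adjusted p = 0.0278). Psma7 had 111 and 102 CPM in Tgfbr1/2 DKO libraries and 61.4 and 63.5 CPM in Tcf21-Cre control libraries, a rise of 0.85 ± 0.18 (adjusted p = 0.028). The lowest DKO library stood well above the highest control library for both genes, which lie at chr13:14613240-14674236 (Psma2) and chr2:180036374-180042433 (Psma7) in GRCm38. The other 5 had log2 fold changes of at most 0.56 and did not pass.

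The 7 beta subunits, which form the inner rings, were likewise all above 0, between 0.34 (Psmb4) and 1.35 (Psmb3), and only Psmb4 had overlapping libraries. Psmb3, a structural beta subunit, had 67.1 and 61.3 CPM in Tgfbr1/2 DKO libraries and 28.3 and 25.1 CPM in Tcf21-Cre control libraries. It rose by 1.35 ± 0.18 on the log2 scale (adjusted p = 0.00511), the largest change of a 20S gene. The gene lies at chr11:97703399-97713500. The catalytic subunits did not pass the edgeR test, and Psmb5 passed with DESeq2 (adjusted p = 0.0275) and without the filter on low counts (0.0149). Psmb5, with the chymotrypsin-like site, had 69.4 and 80.8 CPM in Tgfbr1/2 DKO libraries and 48.1 and 45.2 CPM in Tcf21-Cre control libraries (log2 fold change 0.77 ± 0.19, adjusted p = 0.0535). Psmb6, with the caspase-like site, had 64.8 and 60.9 CPM in Tgfbr1/2 DKO libraries and 44.0 and 52.7 CPM in Tcf21-Cre control libraries (0.45 ± 0.19, adjusted p = 0.226). Psmb7, with the trypsin-like site, had 74.7 and 73.6 CPM in Tgfbr1/2 DKO libraries and 51.5 and 53.9 CPM in Tcf21-Cre control libraries (0.57 ± 0.18, adjusted p = 0.111). For each of the 3 the libraries of the groups were apart, and their summed level was 1.44-fold.

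The 6 ATPases that drive unfolding in the 19S base were all above 0, 5 of them without overlap, and Psmc4 and Psmc5 passed the test. Psmc4 had 56.1 and 56.8 CPM in Tgfbr1/2 DKO libraries and 23.2 and 19.3 CPM in Tcf21-Cre control libraries, a rise of 1.5 ± 0.20 (adjusted p = 0.00402). It was the largest change of a subunit gene among the 41, and the gene lies at chr7:28041707-28050101. Psmc5 had 87.5 and 91.4 CPM in Tgfbr1/2 DKO libraries and 56.5 and 47.6 CPM in Tcf21-Cre control libraries, a rise of 0.87 ± 0.18 (adjusted p = 0.0284). Psmc6 was the least changed ATPase, with 35.7 and 36.0 CPM in Tgfbr1/2 DKO libraries and 36.6 and 30.4 CPM in Tcf21-Cre control libraries, which overlap (0.19 ± 0.20). Psmc3ip, which the symbol rule takes in although it encodes no ATPase, had the largest change of all members. Its level was 21.6 and 19.7 CPM in Tgfbr1/2 DKO libraries and 5.55 and 4.38 CPM in Tcf21-Cre control libraries, a rise of 2.14 ± 0.26 (adjusted p = 0.00257). Exons of Mlx on the opposite strand cover 385 bases, or 21.2%, of its exons, and the library kits do not mark the strand, so reads of these genes cannot be told apart there.

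The 11 non-ATPase subunits of the cap include the ubiquitin receptor Psmd4, the scaffolds Psmd1 and Psmd2 and the deubiquitinase Psmd14. Of them 10 were above 0 and none passed the test. Psmd13, a lid subunit, had 18.7 and 25.6 CPM in Tgfbr1/2 DKO libraries and 9.01 and 12.3 CPM in Tcf21-Cre control libraries (1.14 ± 0.29, adjusted p = 0.0595). Psmd14 had 54.6 and 58.2 CPM in Tgfbr1/2 DKO libraries and 39.4 and 28.7 CPM in Tcf21-Cre control libraries (0.82 ± 0.20, adjusted p = 0.0535). Both genes had libraries apart and missed the threshold by little. Psmd8, a lid subunit that lies beside the base, ran against the rest with 39.8 and 42.9 CPM in Tgfbr1/2 DKO libraries and 46.5 and 46.3 CPM in Tcf21-Cre control libraries (-0.083 ± 0.19). Its CPM lay lower in both DKO libraries, while its fitted change was within its error.

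The activators open the gate of the barrel in place of the 19S cap. Psme1 and Psme2, which together form the PA28 alpha-beta ring and are known for their response to interferon, did not pass by a small margin. Psme1 had 166 and 156 CPM in Tgfbr1/2 DKO libraries and 100.3 and 105 CPM in Tcf21-Cre control libraries (0.73 ± 0.18, adjusted p = 0.0518). Psme2 had 37.8 and 34.6 CPM in Tgfbr1/2 DKO libraries and 20.6 and 22.7 CPM in Tcf21-Cre control libraries (0.82 ± 0.20, adjusted p = 0.0544). Psme2b-ps shares 794 bases with Psme2 at 99.37% identity, so the level of Psme2 is uncertain. Psme2b-ps reached 5.88 CPM in Smad2/3 DKO HK15, and at most 3.22 CPM in the Tgfbr1/2 DKO and Tcf21-Cre control libraries. Both genes passed with DESeq2 (adjusted p = 0.0191 for Psme1 and 0.0259 for Psme2) and without the filter on low counts (0.0209 and 0.0199 in the same order). Psme3, the nuclear PA28 gamma, had 109.9 and 116 CPM in Tgfbr1/2 DKO libraries and 107.9 and 81.6 CPM in Tcf21-Cre control libraries (0.34 ± 0.19, adjusted p = 0.352). Psme4, which encodes the activator PA200, had 91.2 and 99.9 CPM in Tgfbr1/2 DKO libraries and 123 and 92.4 CPM in Tcf21-Cre control libraries (-0.083 ± 0.19, adjusted p = 0.859). Psme1 and Psme2 had no overlap between groups, and the libraries of Psme4 overlapped. The assembly chaperones Psmd5 and Psmd10, which bind ATPases before the base forms, had log2 fold changes of 0.58 and 0.62, and Psmd9 of 0.034, none past the test. Psmd9 had 20.8 and 16.5 CPM in Tgfbr1/2 DKO libraries and 18.1 and 20.1 CPM in Tcf21-Cre control libraries, which overlap. Exons of Gm26745 on the opposite strand cover 25.5% of its exons, so its level is uncertain in all groups. In all, 11 members share exon bases with another gene, among them Psmb7 (11.8%, with Nek6) and Psmd13 (10.1%, with Sirt3). Of the tissue-specific subunits, Psmb11, known from the cortical epithelium of the thymus, had 3.498 and 3.67 CPM in Tgfbr1/2 DKO libraries and 4.83 and 4.11 CPM in Tcf21-Cre control libraries. A stretch of up to 146 bases of Psmb11 is near-identical in many other genes, so its counts are uncertain.

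**Figure D3:**
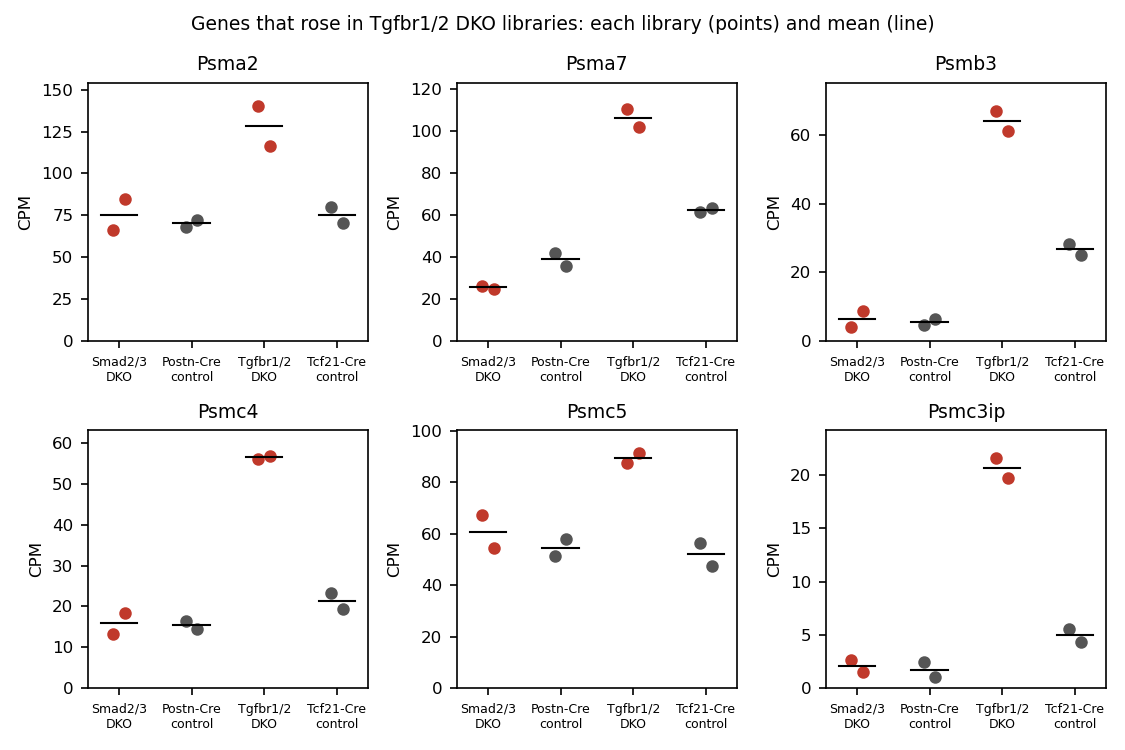
CPM in each library (points) and group mean (line) of the 6 members with an adjusted p below 0.05 in Tgfbr1/2 DKO against Tcf21-Cre control. In every panel both Tgfbr1/2 DKO libraries lie above all 6 others, and Psmb3 and Psmc3ip are near the floor of the plot in the Smad2/3 DKO and Postn-Cre control libraries.

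Fits that left out 1 library kept 1 in its group, so a call lost there does not show dependence on that library. Over the alternative settings the log2 fold change stayed between 0.79 and 0.92 for Psma2, 0.78 and 0.93 for Psma7, and 0.77 and 0.98 for Psmc5. Psmc3ip, Psmc4 and Psmb3 were called in each of the 4 fits that left out 1 library, and Psma2, Psma7 and Psmc5 in none of the 4. In a fit of all 8 libraries Psmb3 did not pass (adjusted p = 0.0619) and 5 members were called. Without Tgfbr1/2 DKO HK4, Tcf21-Cre control HK6 or Tcf21-Cre control HK7 the count fell to 3, and it was 12, all higher, with DESeq2 and without the filter on low counts. The share of all genes called with DESeq2 or without the filter is not given here, so the 12 cannot be set beside it. Markers of another cell type moved with the result. The summed level of myeloid markers, of which 5 of 6 were in the tables, was 161 and 185 CPM in Tgfbr1/2 DKO libraries and 51.9 and 71.8 CPM in Tcf21-Cre control libraries. Csf1r (1.34 ± 0.30, adjusted p = 0.0381) and Cd74 (1.61 ± 0.33, adjusted p = 0.0379) rose, while Cd68 stood at 18.4 and 15.5 CPM in Tgfbr1/2 DKO libraries and 22.1 and 13.8 CPM in Tcf21-Cre control libraries, and Ptprc reached at most 2.07 CPM. The largest part was Lyz2, with 82.5 and 90.6 CPM in Tgfbr1/2 DKO libraries and 9.90 and 26.6 CPM in Tcf21-Cre control libraries (adjusted p = 0.103). Their part in the proteasome result was not tested. The endothelial sum was 123 and 131 CPM in Tgfbr1/2 DKO libraries and 84.0 and 97.3 CPM in Tcf21-Cre control libraries, with no marker of the 6 called.

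The promoters of 3 subunit genes that rose are shown with that of Psme4, which was not called, because they were compared for motifs. The windows run from 250 bases before to 50 bases after the RefSeq gene start in GRCm38.p6, on the strand of the gene, and capitals mark matches on either strand to any of 8 motifs. They are Psma7 (chr2:180042415-180042714, minus strand), Psmb3 (chr11:97703184-97703483, plus strand), Psmc4 (chr7:28050043-28050342, minus strand) and Psme4 (chr11:30771525-30771824, plus strand).
Psma7: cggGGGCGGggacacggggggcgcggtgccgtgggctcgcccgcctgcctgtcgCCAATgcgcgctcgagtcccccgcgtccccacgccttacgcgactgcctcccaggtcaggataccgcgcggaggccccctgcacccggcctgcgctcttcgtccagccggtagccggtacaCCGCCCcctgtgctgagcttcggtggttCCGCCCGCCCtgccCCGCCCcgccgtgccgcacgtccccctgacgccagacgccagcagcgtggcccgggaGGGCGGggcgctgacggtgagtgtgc
Psmb3: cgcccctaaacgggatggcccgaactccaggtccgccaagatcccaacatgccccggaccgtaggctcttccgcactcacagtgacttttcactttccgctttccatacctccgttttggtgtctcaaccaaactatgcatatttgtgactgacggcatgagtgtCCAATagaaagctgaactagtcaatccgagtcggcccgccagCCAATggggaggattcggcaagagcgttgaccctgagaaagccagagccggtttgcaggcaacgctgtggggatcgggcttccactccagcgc
Psmc4: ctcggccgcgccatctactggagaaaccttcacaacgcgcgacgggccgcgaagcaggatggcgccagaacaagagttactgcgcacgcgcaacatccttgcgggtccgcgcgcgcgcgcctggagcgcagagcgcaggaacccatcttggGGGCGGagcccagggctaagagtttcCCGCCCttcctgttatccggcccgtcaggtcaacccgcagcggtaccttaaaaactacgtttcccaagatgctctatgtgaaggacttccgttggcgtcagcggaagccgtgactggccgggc
Psme4: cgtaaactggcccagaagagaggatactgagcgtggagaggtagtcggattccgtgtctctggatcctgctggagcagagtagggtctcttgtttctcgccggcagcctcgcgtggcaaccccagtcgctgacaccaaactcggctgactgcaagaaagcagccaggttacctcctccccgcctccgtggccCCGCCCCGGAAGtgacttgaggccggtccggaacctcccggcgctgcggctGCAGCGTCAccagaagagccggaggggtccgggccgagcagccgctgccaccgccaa
Psma7 had GC boxes and a CCAAT box, Psmb3 a pair of CCAAT boxes, Psmc4 a pair of GC boxes, and Psme4 a GC box, an ETS site that overlaps it and an antioxidant response element core near the start.

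Windows were found for 34 of the 41 members, and not for Psma8, Psmb1, Psmb2, Psmb7, Psmc3, Psmd3 and Psmd7. A gene counted as a match when any of its windows held the motif on either strand, and matches to different motifs may overlap. The ETS family site CCGGAAG was in 13 of 34 members (38.2%), against 9.93% of all 27025 genes with a window and 17.5% of the other genes tested. The GC box GGGCGG was in 21 members (61.8%, against 65.0% of other tested genes) and the CCAAT box in 14 (41.2%, against 42.4%). The antioxidant response element core TGACNNNGC, the type of site that Nfe2l1 and Nfe2l2 bind, was in 6 members (17.6%, against 17.0%). The Smad-type site CAGACA was in 4 members (11.8%, against 19.5%), the E-box CACGTG in 3 (8.82%, against 11.3%), the AP-1 site TGAGTCA in Psmd9 alone (2.94%, against 4.85%) and the palindromic Smad box GTCTAGAC in Psmb5 alone (2.94%, against 0.279%). Of the 5 subunit genes called in Tgfbr1/2 DKO none held the ETS site, and Psmc3ip held it. These are letter matches in a window and describe no binding.

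In Smad2/3 DKO fibroblasts no member passed the test against the Postn-Cre control. Members had values in either direction, with a median log2 fold change of -0.015 among 40 members tested and 0.0073 among 15760 genes, and 19 of 40 members above 0 (47.5%, against 50.6% of all genes). The edgeR test called 0 of 40 (1.29% of all genes were called). At an unadjusted p below 0.05 there were 3 members, all lower (3 of 40, against 7.35% of all genes), and DESeq2 called 1, Psmd1. Libraries did not overlap for 11 members that were higher in Smad2/3 DKO (27.5%, against 25.4% of all genes) and 7 that were lower (17.5%, against 18.9%).

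Among the subunits with the largest negative values, Psmd1, the largest scaffold of the cap, had 167 and 194 CPM in Smad2/3 DKO libraries and 248 and 275 CPM in Postn-Cre control libraries (-0.59 ± 0.16, adjusted p = 0.112 in edgeR and 0.0309 in DESeq2). Psma7 had 26.3 and 24.9 CPM in Smad2/3 DKO libraries and 42.2 and 35.8 CPM in Postn-Cre control libraries (-0.67 ± 0.25, adjusted p = 0.262). Psmc1 had 18.5 and 13.0 CPM in Smad2/3 DKO libraries and 36.6 and 16.2 CPM in Postn-Cre control libraries (-0.81 ± 0.39, adjusted p = 0.411). The DKO libraries of Psmd1 and Psma7 lay below both controls, and those of Psmc1 overlapped them, and its control libraries were themselves far apart. The largest positive values belonged to Psme2, Psme1 and Psmb6 among members that averaged at least 10 CPM and otherwise to Psmd13. Psme1 had 110.6 and 113.9 CPM in Smad2/3 DKO libraries and 89.4 and 77.7 CPM in Postn-Cre control libraries (0.37 ± 0.18, adjusted p = 0.415), and Psme2 had 16.1 and 14.2 CPM in Smad2/3 DKO libraries and 10.5 and 10.6 CPM in Postn-Cre control libraries (0.46 ± 0.34, adjusted p = 0.616). Both PA28 genes had DKO libraries above the controls without passing the test. Psme2b-ps, near-identical to Psme2 over part of its length, had 5.88 and 5.12 CPM in Smad2/3 DKO and 4.31 and 3.00 CPM in Postn-Cre control libraries. The level of Psme2 is therefore uncertain in these groups too.

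The remaining catalytic subunits and activators gave no call either. Psmb5 had 20.96 and 20.4 CPM in Smad2/3 DKO libraries and 21.7 and 17.8 CPM in Postn-Cre control libraries, and Psmb6 had 23.6 and 22.9 CPM in Smad2/3 DKO libraries and 19.8 and 14.9 CPM in Postn-Cre control libraries. Psmb7 had 48.2 and 55.0 CPM in Smad2/3 DKO libraries and 47.9 and 39.4 CPM in Postn-Cre control libraries. Psme3 had 141 and 151 CPM in Smad2/3 DKO libraries and 125 and 159 CPM in Postn-Cre control libraries, and Psme4 had 238 and 225 CPM in Smad2/3 DKO libraries and 223 and 252 CPM in Postn-Cre control libraries. Psmb6 and Psmb7 had DKO libraries above both controls, and the other 3 overlapped. The summed level of the beta ring was 168 and 182 CPM in Smad2/3 DKO libraries and 162 and 156 CPM in Postn-Cre control libraries. That of the alpha ring was 344 and 423 CPM in Smad2/3 DKO libraries and 424 and 420 CPM in Postn-Cre control libraries. Psma8 was not tested in this comparison because it did not pass the filter on low counts. Marker sums differed here too. The endothelial sum was 88.7 and 35.3 CPM in Smad2/3 DKO libraries and 222 and 74.2 CPM in Postn-Cre control libraries. Of 7 fibroblast markers Col1a1 (log2 fold change -1.69) and Col1a2 (-1.44) were called lower. Pdgfra (0.037), Dcn (0.031) and Tcf21 (0.37) lay above 0, and Lum and Ddr2 below 0, none of them called. Of 5 pericyte and smooth muscle markers Kcnj8 was called lower (-3.17). Their part was not tested.

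**Figure D4:**
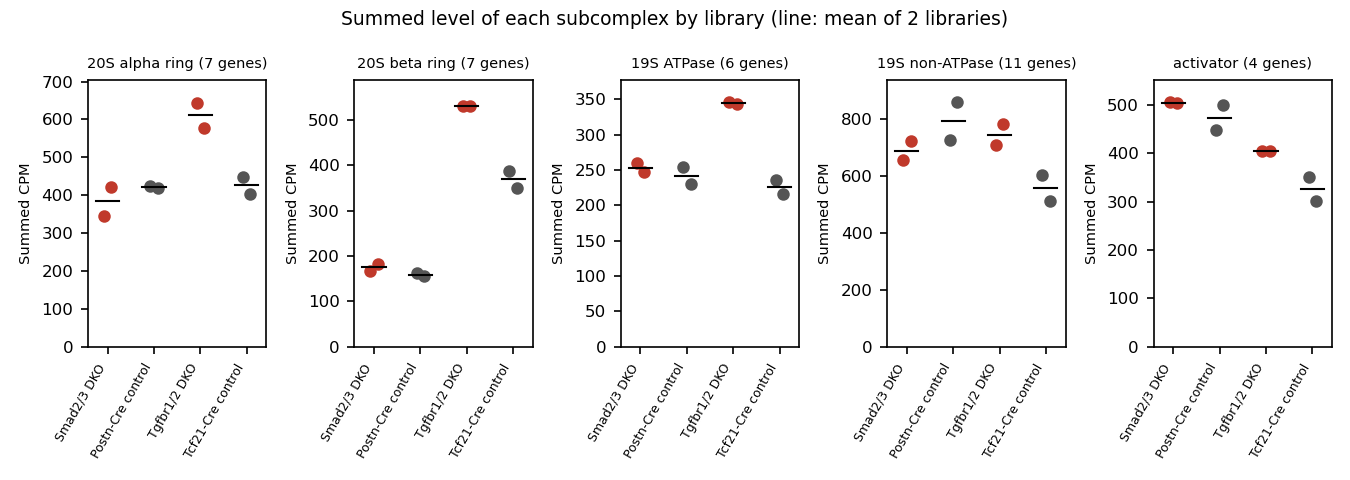
Summed CPM of the genes of each subcomplex in each library (points) with the group mean (line), for 7, 7, 6, 11 and 4 genes. Tgfbr1/2 DKO lies above Tcf21-Cre control in all 5 panels, and the beta ring lies between 156 and 182 CPM in the 4 libraries of the Postn-Cre driver and between 351 and 531 CPM in the 4 of the Tcf21-Cre driver.

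The difference between both effects was tested directly, as the Smad2/3 effect minus the Tgfbr1/2 effect in 1 fit of the 8 libraries. It was negative for 39 of 41 members, so that 4.88% were above 0 against 50.6% of all 17770 genes, with a median of -0.61 on the log2 scale against 0.012. The test called 2 members, both lower (4.88%, against 1.83% of all genes called in either direction and 1.17% called lower). Psma7 differed by -1.52 ± 0.26 (adjusted p = 0.0192), with effects of -0.67 in Smad2/3 DKO and 0.85 in Tgfbr1/2 DKO. Psmc4 differed by -1.53 ± 0.34 (adjusted p = 0.049), with effects of -0.025 in Smad2/3 DKO and 1.5 in Tgfbr1/2 DKO. At an unadjusted p below 0.05 there were 17 members, all lower (41.5%, against 9.51% of all genes). Psmc4 was called in none of the 8 fits that left out 1 library and Psma7 in 3 of 8, and no member was called without Smad2/3 DKO HK15, Smad2/3 DKO HK16, Postn-Cre control HK3 or Tgfbr1/2 DKO HK4. Psmc1 had the next largest negative difference among members with at least 10 CPM (-1.25 ± 0.49, adjusted p = 0.215). For the catalytic and activator genes the differences were between -0.78 (Psmb5) and -0.019 (Psme4), none past the test, and Psmd9 at 0.18 ± 0.60 and Psmb11 at 0.67 ± 0.54 were the members above 0. The summed myeloid markers were 24.1 and 19.1 CPM in Smad2/3 DKO and 30.0 and 28.5 CPM in Postn-Cre control libraries, and all 5 markers lay below 0 in the difference with 0 called. All 6 endothelial markers lay below 0 too (median -2.16, 0 called), and of 5 pericyte and smooth muscle markers Kcnj8 was called lower (-3.89 ± 0.69, adjusted p = 0.0212). The part of these cell types was not tested.

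Between the control groups members were called in both directions. In Postn-Cre control against Tcf21-Cre control libraries 20 of 41 members were called (48.8%, against 34.9% of all genes), 12 higher (29.3%, against 15.9%) and 8 lower in the Postn-Cre control (19.5%, against 18.9%). The median log2 fold change was -0.0065 among members and -0.12 among all genes, and 20 members were above 0 (48.8%, against 46.4% of all genes). Libraries did not overlap for 13 members that were higher (31.7%, against 23.1% of all genes) and 21 that were lower (51.2%, against 46.7%). Of 7 beta subunits 6 fell, by between 0.95 and 1.98 on the log2 scale, and the summed beta level was 162 and 156 CPM in Postn-Cre control libraries against 388 and 351 CPM in Tcf21-Cre control libraries, or 0.431-fold. The alpha ring gave 424 and 420 CPM in Postn-Cre control libraries against 448 and 404 CPM in Tcf21-Cre control libraries, which overlap. These sums and overlaps use CPM by library total, whereas the log2 values use library sizes scaled by TMM factors. Over the 8 libraries those factors were 0.898 and 0.922 in Postn-Cre control and 1.154 and 1.073 in Tcf21-Cre control libraries. Ring sums with scaled sizes are not given here. Markers of cell types differed between the controls as well. The pericyte and smooth muscle sum was 1376 and 728 CPM in Postn-Cre control libraries and 606 and 307 CPM in Tcf21-Cre control libraries, with 1 of 5 markers called, Rgs5 (1.77 ± 0.37, adjusted p = 0.00365). Of 6 endothelial markers Pecam1 rose (1.34 ± 0.37, adjusted p = 0.0157), of 5 myeloid markers Lyz2 fell (-2.81 ± 0.61, adjusted p = 0.0048), and of 7 fibroblast markers 1 rose and 3 fell. Their part in the proteasome values was not tested.

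Psmb3 had 4.62 and 6.44 CPM in Postn-Cre control libraries and 28.3 and 25.1 CPM in Tcf21-Cre control libraries, and fell (log2 fold change -1.98 ± 0.33, adjusted p = 0.00111). Psmb4 had 27.1 and 24.8 CPM in Postn-Cre control libraries and 88.8 and 60.02 CPM in Tcf21-Cre control libraries (-1.22 ± 0.21, adjusted p = 0.00136). Psmb2, another structural subunit, had 27.9 and 38.2 CPM in Postn-Cre control libraries and 95.0 and 78.4 CPM in Tcf21-Cre control libraries (-1.10 ± 0.20, adjusted p = 0.00154). The catalytic Psmb6 (-1.19 ± 0.23, adjusted p = 0.00236) and Psmb5 (-0.95 ± 0.21, adjusted p = 0.00586) fell as well, whereas Psmb7 was at 47.9 and 39.4 CPM in Postn-Cre control libraries and 51.5 and 53.9 CPM in Tcf21-Cre control libraries (0.019 ± 0.19, adjusted p = 0.953). The genes Psmb2, Psmb3, Psmb4, Psmb5 and Psmb6 were called in each of the 13 alternative settings, including all 8 fits that left out 1 library.

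Higher in the Postn-Cre control were 6 of 11 non-ATPase subunits, 3 alpha subunits, the activators Psme3 and Psme4 and the ATPase Psmc6. Psmd1 had 248 and 275 CPM in Postn-Cre control libraries and 124 and 108 CPM in Tcf21-Cre control libraries (1.46 ± 0.20, adjusted p = 0.000431). Psme4 had 223 and 252 CPM in Postn-Cre control libraries and 123 and 92.4 CPM in Tcf21-Cre control libraries (1.43 ± 0.18, adjusted p = 0.000265). Psmc6 had 73.0 and 67.0 CPM in Postn-Cre control libraries and 36.6 and 30.4 CPM in Tcf21-Cre control libraries (1.36 ± 0.18, adjusted p = 0.000365). In each of these the groups were far apart. Psmd11, a lid subunit, had 128 and 221 CPM in Postn-Cre control libraries and 116 and 87.1 CPM in Tcf21-Cre control libraries (1.08 ± 0.24, adjusted p = 0.00551). It was not called without Postn-Cre control HK4 (0.64, adjusted p = 0.0593) or without Tcf21-Cre control HK7 (0.92, adjusted p = 0.0508), and it shares 1501 bases with A730017L22Rik, which reached 6.61 CPM. Psme3 rose by 0.88 ± 0.19 (adjusted p = 0.00408), Psme2 fell (-0.75 ± 0.24, adjusted p = 0.0309, called in 2 of the 8 fits that left out 1 library) and Psme1 was at -0.0065 ± 0.17.

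Gene length moved with this contrast. Over the 41 members the log2 difference between controls had a Spearman correlation of 0.46 with exon-union length, and over 17369 genes the correlation was 0.15, as a description across genes that share their libraries. In 4 equal classes of length, shortest to longest, the medians of all genes were -0.39, -0.34, -0.15 and 0.22. With the trend over all genes removed, a step chosen after seeing the data, the member median became 0.41. The falls of all called beta genes were smaller after this step. They became -1.44 (Psmb3), -0.74 (Psmb1), -0.62 (Psmb4), -0.59 (Psmb6), -0.54 (Psmb2) and -0.49 (Psmb5) on the log2 scale. Psmb7, which was not called, moved to 0.40. The longest of the called beta genes, Psmb1, has an exon union of 4595 bases and had 13.3 and 14.4 CPM in Postn-Cre control libraries and 32.3 and 35.3 CPM in Tcf21-Cre control libraries. Run, driver and cell lineage cannot be told apart here, and the part of length was not tested further. The split of calls differed between fits. It was 4 higher and 6 lower without Tcf21-Cre control HK7, 6 higher and 10 lower without Postn-Cre control HK3, and 7 higher and 8 lower without Postn-Cre control HK4. Without the filter on low counts it was 9 higher and 10 lower.

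**Figure D5:**
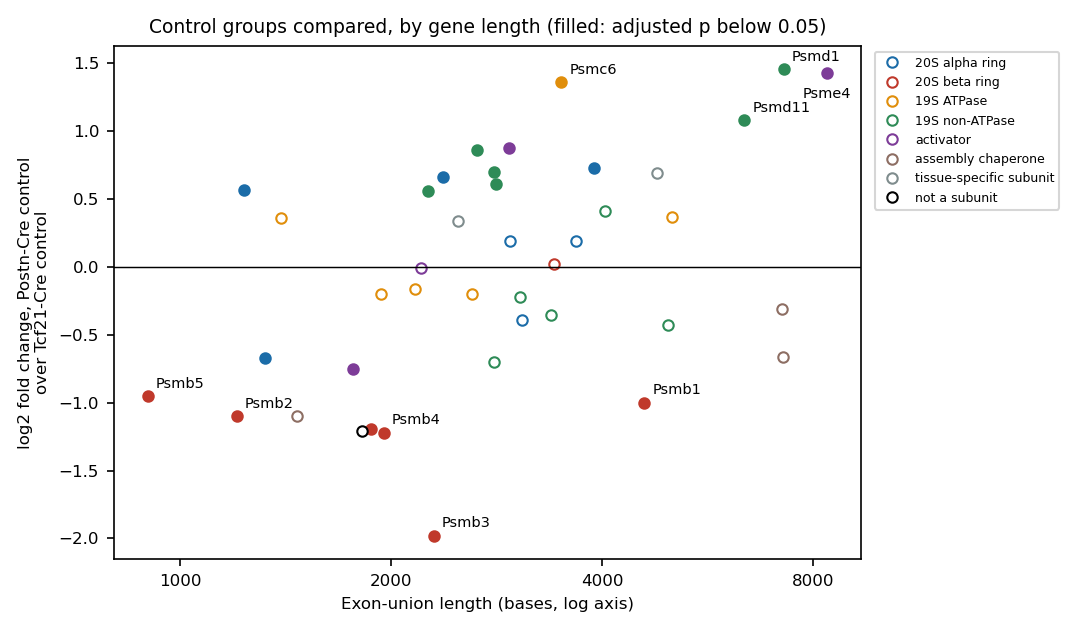
Log2 fold change of each member, Postn-Cre control over Tcf21-Cre control, against the length of its exon union (log axis), coloured by role and filled where the adjusted p was below 0.05. Of the beta subunits 6 lie at -0.95 or lower, and Psme4, Psmd1, Psmc6 and Psmd11 lie above 1. The long genes Psmd9 (-0.66) and Psmd5 (-0.31) lie below 0, and 25.5% of the exons of Psmd9 overlap another gene on the opposite strand.

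Genes that work with the proteasome were followed in 6 lists, with 59 genes. In Tgfbr1/2 DKO the only gene called of the 59 was Pomp, the chaperone that matures the 20S core. Over all genes of this contrast 3.96% were called and 49.1% were above 0. Pomp had 139 and 125 CPM in Tgfbr1/2 DKO libraries and 74.6 and 83.0 CPM in Tcf21-Cre control libraries (0.82 ± 0.18, adjusted p = 0.035). It was 1 of 5 assembly chaperones outside the symbol rule, of which 4 were above 0. All 10 genes of the p97 unfoldase list, which extracts ubiquitinated proteins, were above 0 with a median of 0.30 and 0 called, and so were 11 of 12 ubiquitin genes and conjugating enzymes with a median of 0.24 and 0 called. Of 16 other proteasome-bound proteins 9 were above 0, with a median of 0.15 and 0 called; the ubiquitin shuttle Rad23b had the smallest p (0.51, adjusted p = 0.146). The regulators of proteasome genes had a median of -0.0088 in Tgfbr1/2 DKO, with 0 of 10 called. Nfe2l1 had 333 and 347 CPM in Tgfbr1/2 DKO libraries and 333 and 333 CPM in Tcf21-Cre control libraries. In Smad2/3 DKO none of the 6 lists held a called gene, where 1.29% of all genes were called. Nfe2l2 had the smallest p among the regulators there (-0.51 ± 0.14, adjusted p = 0.127). The chaperone Psmg1 stood at 1.10 ± 0.32 (adjusted p = 0.134).

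Over all genes 1.83% were called in the difference between effects. It called 1 listed gene, Uba1, the main ubiquitin-activating enzyme (-1.15 ± 0.23, adjusted p = 0.0347). Uba1 had 277 and 260 CPM in Smad2/3 DKO libraries and 318 and 360 CPM in Postn-Cre control libraries. Its values were 471 and 483 CPM in Tgfbr1/2 DKO libraries and 309 and 293 CPM in Tcf21-Cre control libraries. Between controls, all 6 genes of the immunoproteasome and peptide supply list fell in the Postn-Cre control, by between 1.38 and 3.33 on the log2 scale. The subunits Psmb8, Psmb9 and Psmb10, which replace the catalytic beta subunits after interferon, summed to 8.58 and 6.57 CPM in Postn-Cre control libraries and 38.3 and 40.3 CPM in Tcf21-Cre control libraries. Over all genes of this contrast 34.9% were called, 15.9% higher and 18.9% lower, beside which the counts of the lists are to be read. Of 16 proteasome-bound proteins 6 rose and 2 fell, and Rad23b was among those that rose (1.29 on the log2 scale). In the same contrast Nfe2l2 rose (2.12 ± 0.26, adjusted p = 0.000211), with Nfya and Mafg, and of 12 ubiquitin genes and enzymes 7 rose, while Ubb fell (-3.32 on the log2 scale). None of the 6 immunoproteasome list genes was called in Tgfbr1/2 DKO or Smad2/3 DKO.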

How the data were processed

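Libraries were made from total RNA with the Ovation RNA-Seq System and Nextera XT kits, per the labels' protocols, which do not mark strand. The deposited tables hold expected counts per Ensembl gene, 1 table per run. Of the values above 0, 12.5% were whole. The build is mm10, per the submitters' processing notes, and the counting tool is not given in the sources used here. Entries that share a symbol were summed, and no member had several. Counts were rounded and tested with edgeR 4.0.16 (filterByExpr, TMM, robust quasi-likelihood fit, Benjamini-Hochberg over all genes, threshold 0.05). Each knockout pair was fitted alone, with 4 libraries, and the difference and the control contrast in a fit of all 8. CPM use the library total. Positions, exon unions and overlaps come from GENCODE vM21, and near-identical copies from BLAST 2.17.0 at 95% identity over 100 bases. DESeq2 1.42.0 and other settings were tried. The fit was checked on simulated data. The deposited fold-change tables were not used. The members and gene lists were chosen with earlier results of these data known. Genes named are the catalytic and activator subunits, called members (the 10 with the smallest p where more), and the 3 highest and 3 lowest members that average 10 CPM. Of the pathway lists, called genes and those of smallest p are named, not all of them here. Others with values were named after these were seen. Values of some listed genes are not reported here.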

Additional observations from a re-analysis of the deposited data

Results flagged for a closer look

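A test of the difference between both knockout effects was passed by 3 genes of the families followed here, in each case with a Smad2/3 effect below the Tgfbr1/2 effect. Psma7, an alpha subunit, differed by -1.52 on the log2 scale, Psmc4, an ATPase, by -1.53, and Uba1, the ubiquitin-activating enzyme, by -1.15. Psmc4 lay just under the threshold (edgeR adjusted p = 0.049). The pairs also differ in sequencing run and in the Cre driver, which cannot be told apart from the targeted genes.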

How the results depend on the processing

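No paired analysis was possible because the compared groups share no library number. A fit without 1 library leaves 1 in its group, which is assumed to vary like the others. Members called in Smad2/3 DKO numbered 1, Psmd1, without the low-count filter and 1 with DESeq2. In Tgfbr1/2 DKO they numbered 12 in each of those settings and 3 to 4 with 1 library left out. For the difference of effects they numbered 5 in each of those settings, 1 without robust estimation and 0 to 2 with 1 library left out, and between controls 10 to 21. The share of all genes called in these settings is not given here, and the cause was not tested. With 1 library left out, the member median ran between -0.13 (without Smad2/3 DKO HK16) and 0.069 (without HK15) in Smad2/3 DKO, between -0.78 and -0.53 for the difference, and between -0.18 and 0.10 for the controls. The control median was 0.079 with DESeq2-type size factors and 0.41 with the length trend removed. With effective library sizes the mean summed CPM was 2158 in Smad2/3 DKO, 2331 in Postn-Cre control, 2605 in Tgfbr1/2 DKO and 1760 in Tcf21-Cre control libraries. By library total, the mean sum in Tgfbr1/2 DKO libraries was 2635 CPM over the 35 constitutive members and 2718 CPM over all 41.

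Single members near 0 turned sign when 1 library was left out. In Smad2/3 DKO the ranges were -0.14 to 0.17 for Psmb5 (-0.0016 with DESeq2) and -0.16 to 0.15 for Psme3. In Tgfbr1/2 DKO they were -0.22 to 0.089 for Psme4 and -0.21 to 0.046 for Psmd8. For the difference they were -0.31 to 0.15 for Psmb6, -0.21 to 0.12 for Psme4 and -0.36 to 1.06 for Psmd9. Between controls they were -0.18 to 0.16 for Psmb7 (-0.01 without the filter) and -0.16 to 0.10 for Psme1 (0.074 with DESeq2, 0.079 with its size factors). Of the other values of single members, 482 kept direction and side of the threshold, 35 lost a call and 10 gained one. Library totals limit counts near 3, which bears on Psma8 alone among members.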
